A study of Mus musculus with 9 samples.

Results

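Depletion of RPA1 in mouse fibroblasts is described here from 3 arrays of cells that received an shRNA against RPA1 and 3 arrays of cells that received a scrambled shRNA, out of 9 arrays in the series. The arrays were chosen by the shRNA named in the labels. RPA, replication protein A, is the trimeric complex that coats single-stranded DNA during replication, repair and recombination. RPA1 is its large subunit and carries most of its DNA binding, RPA2 is the subunit phosphorylated after damage, and RPA3 is the small subunit that holds the trimer together. RPA-coated DNA is the platform that recruits the ATR checkpoint kinase, and cells with too little RPA are known to accumulate unprotected single-stranded DNA.

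The cells were immortalized embryonic fibroblasts of ICR mice. In all 3 groups, controls included, the shRNA came in an adenovirus, applied for 2 h at 1e8 pfu per ml. Culture at 37 C in DMEM with 10% serum followed for 70 h, and 200 ng of RNA was labelled. The control group had a scrambled shRNA, the RPA1 group an shRNA against mouse RPA1, and the third group (3 arrays) an shRNA against HSF1, the heat shock transcription factor. The series was made to ask if HSF1 and RPA, which bind each other, act together on transcription. Every group rests on cells infected with virus, so no value of uninfected cells stands beside them, and the labels name 1 shRNA per target. Separate cultures are not stated for the 3 arrays of any group, so p-values measure only the spread between these samples, which may be technical.

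Affymetrix Mouse Gene 1.0 ST arrays gave 1 log2 signal per probe set. Of 35557 rows, 21789 carried 1 gene symbol, and the brightest row of each gene gave 19938 genes. A gene is called where its limma p, adjusted over all 19938 genes, is under 0.05. A difference is the mean of the RPA1 shRNA arrays minus that of the control arrays on the log2 scale, followed by ± its standard error (n = 3 arrays per group). Levels are log2 signals and are not compared between genes, except to group all genes as bright or dim. Array medians lay between 7.72 and 7.81, and the number of arrays limits the precision.

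The targeted transcript fell to nearly the same level in all 3 arrays. Rpa1 on chromosome 11 read 9.42, 9.34 and 9.40 log2 units under RPA1 shRNA and 11.40, 11.42 and 11.41 in the controls. Its log2 difference was -2.02 ± 0.04, with no overlap between the groups (limma adjusted p = 3.5e-08). The transcripts of the partner subunits moved less. Rpa2 read 10.50, 10.61 and 10.56 against 10.86, 10.91 and 10.82, a log2 difference of -0.30 ± 0.05 (limma adjusted p = 0.0011). Rpa3 read 11.61, 11.65 and 11.30 against 11.61, 11.61 and 11.68 and was not called (-0.11 ± 0.10). Rpa1 was also lower under RPA1 shRNA than under HSF1 shRNA (direct log2 difference -1.94, limma adjusted p = 5.2e-08), and for Rpa2 that difference was -0.14 (limma adjusted p = 0.070).

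Array 3 of the RPA1 group stood apart from the other 2, although its Rpa1 signal did not. The comparison took each gene at least 2-fold from control in both other arrays and asked what share of that mean difference array 3 showed. Over 408 genes the median ratio was 0.685, with quartiles of 0.5 and 0.863. The same ratio was 1.065 for array 1 (207 genes) and 1.038 for array 2 (208 genes). Only 3 of the 408 genes moved the opposite way or not at all in array 3, and 53 moved at least as far as in the other 2. The ratio was 0.666 over 1446 genes at a 1.5-fold minimum and 0.714 over 109 genes at a 3-fold minimum. Array 3 lay nearest to the controls in 56.3% of called genes, against 21.4% for array 1 and 22.3% for array 2. The scatter of array 3 against the other 2 shows a cloud flatter than equality.

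**Figure D1:**
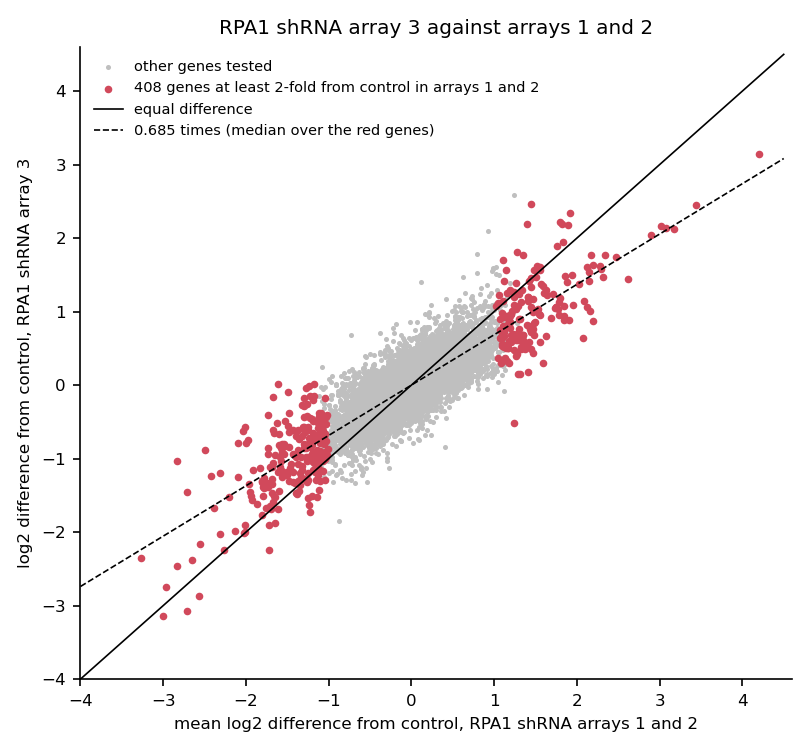
Log2 difference from the control mean in array 3 of the RPA1 group (vertical axis) against the mean log2 difference of arrays 1 and 2 (horizontal axis), 1 point per gene, with the 408 genes at least 2-fold from control in arrays 1 and 2 in red. The red points follow a slope nearer to the drawn line at 0.685 than to the line of equal change.

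The smaller changes in array 3 were not uniform over genes. Ift74 and the tumour suppressor Rb1 were among the genes it showed weakly. Rb1 read 11.46, 11.50 and 10.94 log2 units under RPA1 shRNA and 10.52, 10.54 and 10.59 in the controls. Other genes moved as far or farther in array 3, among them the matricellular gene Ccn2 at 12.23, 12.17 and 12.64 against 11.33, 11.18 and 11.34. Counted array by array, 472, 567 and 296 genes lay at least 2-fold from the control mean in arrays 1, 2 and 3. Of these, 73 passed 2-fold in both arrays 1 and 2 but stayed under 1.5-fold in array 3, and 10 showed the reverse. Counts of called genes below are given with and, where stated, without array 3, and the source of its smaller changes was not tested.

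A large share of the genes moved. Of 19938 genes tested, 5998 were called (30.1%), with 3077 higher (15.4%) and 2921 lower (14.7%), and without array 3 the counts were 3691 and 3554. In 5892 of the called genes all 3 RPA1 arrays lay outside the range of the control arrays, and that held for every called gene named below with its difference. Such separation was common: among all 19938 genes, called or not, it held for 4358 that were higher and 3826 that were lower. Most changes were small: 681 genes rose and 730 fell by at least 1.5-fold. The median difference over all genes was 0.02 log2 units. As a background for the lists below, a list that behaves like all genes would have 15.4% of its members higher and 14.7% lower. That background depends on signal. Of the 14067 genes with a mean above 7.04 log2 units 39.7% were called in either direction. Of the 5871 dimmer genes 7.02% were called. A list of mostly bright genes would therefore have larger shares called without differing from other bright genes. The same model compared RPA1 shRNA with HSF1 shRNA directly, with 1935 genes higher under RPA1 shRNA (9.71%) and 2928 lower (14.7%). HSF1 shRNA against the same controls called 1971 genes higher (9.89%) and 1239 lower (6.21%).

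Among the largest changes, 32 genes moved at least 4-fold with no overlap between the groups, 15 up and 17 down. The largest rise was that of 1700007K13Rik, a gene known by its cDNA clone name. It read 11.47, 11.62 and 10.48 log2 units against 7.32, 7.24 and 7.47, a log2 difference of 3.85 ± 0.24 or 14.4-fold (limma adjusted p = 8.5e-06). All 3 arrays were far above the controls, with array 3 lowest. Prrg4, a membrane protein with a vitamin K dependent Gla domain, read 11.42, 11.56 and 10.75 against 8.89, 9.11 and 9.04 (2.23 ± 0.18). Tbc1d8, which carries a Rab GTPase activating domain, had the widest spread of the 3, at 9.86, 10.31 and 8.91 against 7.45, 7.44 and 7.52 (2.23 ± 0.28).

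The largest falls included secreted proteins of connective tissue. Islr, a leucine-rich repeat protein of stromal cells, read 8.39, 8.34 and 8.05 log2 units against 11.06, 10.92 and 10.80 (-2.67 ± 0.13, limma adjusted p = 3.1e-06). Ptn encodes the heparin-binding growth factor pleiotrophin and read 8.52, 8.50 and 8.79 against 11.20, 11.19 and 11.12 (-2.56 ± 0.11). Abi3bp, a matrix protein, read 8.34, 8.14 and 8.26 against 10.55, 10.47 and 10.48 (-2.26 ± 0.11). These 3 genes fell as far in array 3 as in the other 2, or nearly so. Kcnab1, a potassium channel beta subunit, did not: it read 7.91, 7.94 and 9.18 against 10.68, 10.63 and 10.61 (-2.30 ± 0.28). Under HSF1 shRNA Kcnab1 and the 3 genes above it also lay below every control array, though above the RPA1 arrays. Islr read 9.26, 9.03 and 8.75 there, and Ptn 9.81, 9.57 and 9.40. Abi3bp read 9.16, 8.86 and 8.67 under HSF1 shRNA, and Kcnab1 9.45, 9.33 and 9.32.

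**Figure D2:**
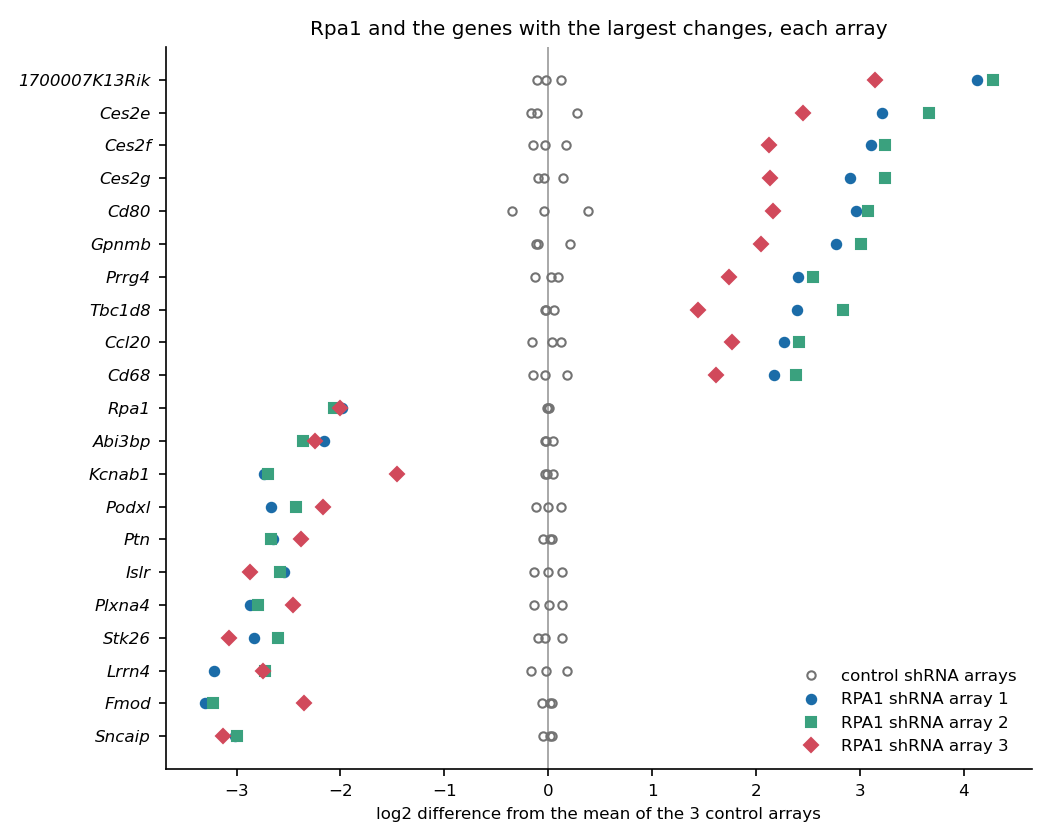
Log2 difference of each array from the control mean for Rpa1, the 10 largest rises and the 10 largest falls, 1 marker per array, with control arrays around 0. For Rpa1 the 3 RPA1 arrays coincide, and for 1700007K13Rik, Tbc1d8 and Kcnab1 array 3 lies nearest to the controls.

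The checkpoint genes that act on RPA-coated DNA lay near the background as a list. Of 14 genes of the ATR checkpoint and its 9-1-1 clamp, 3 were higher (21.4%) and 3 lower (21.4%), at a median of 0.02. Among all genes 15.4% were higher and 14.7% lower. Without array 3 the counts of the list were 6 and 4. Atr and Atrip, the kinase and the partner that binds RPA, were not called (-0.23 ± 0.09 and 0.02 ± 0.06). Etaa1, which activates ATR from RPA directly, read 8.68, 8.74 and 9.03 log2 units against 9.24, 9.31 and 9.30 and fell (-0.47 ± 0.08). Cdc25a, the phosphatase that the checkpoint removes at the protein level, rose in all arrays to 11.53, 11.63 and 11.66 against 11.06, 11.02 and 10.99 (0.58 ± 0.06, limma adjusted p = 0.00012). Rad9a of the clamp rose by 0.39 ± 0.08.

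Fork proteins were more often lower than higher. Of 26 DNA polymerase and fork genes, 11 were lower and 3 higher, a median log2 difference of -0.20, and the counts were the same without array 3. The 2 largest falls among polymerase subunits were in polymerase delta, which makes the lagging strand. Its subunit gene Pold2 read 11.77, 11.83 and 12.01 against 12.42, 12.48 and 12.43 (-0.58 ± 0.07), and the catalytic Pold1 read 9.66, 9.76 and 9.65 against 10.10, 10.21 and 10.10 (-0.45 ± 0.07). Both were lower in every array. Rnaseh2a, which removes ribonucleotides from DNA, fell by 0.47 log2 units (log2 difference -0.47 ± 0.07). Pole4, a histone-fold subunit of polymerase epsilon, rose to 11.65, 11.69 and 11.67 against 11.09, 11.22 and 11.28 (0.47 ± 0.06). Pcna, the sliding clamp, was not called (-0.13 ± 0.05).

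Origin genes gave 7 lower and 2 higher of 25, at a median of -0.09, and the lower count was 4 without control array 2. The GINS complex, part of the replicative helicase, held the largest falls of this list. Gins4 read 11.69, 11.60 and 11.61 log2 units against 12.22, 12.15 and 12.16 (-0.54 ± 0.06), and Gins1 fell by 0.45 (log2 difference -0.45 ± 0.10). Orc1, the origin recognition subunit, rose (0.33 ± 0.07). Of 11 nucleotide synthesis genes 2 rose and 0 fell: Cad, the trifunctional enzyme that starts pyrimidine synthesis (0.55 ± 0.05), and Rrm2, the small subunit of ribonucleotide reductase (0.34 ± 0.06).

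Repair genes that moved were mostly lower. Among 29 genes of homologous recombination and crosslink repair 8 were lower and 1 higher. The lower count was 4 without control array 2 and 5 without control array 3, HSF1 array 2 or RPA1 array 1. Brca2, a tumour suppressor of this pathway, read 9.31, 9.25 and 9.87 log2 units against 10.04, 10.23 and 10.39, and fell (-0.74 ± 0.15, limma adjusted p = 0.0049). Array 3 came closest to the controls there. Wrn, a helicase stimulated by RPA, read 8.94, 8.86 and 8.94 against 9.35, 9.46 and 9.45 (-0.51 ± 0.06). Of 25 end joining and excision repair genes 8 were lower and 3 higher. Neil3, a glycosylase of single-stranded DNA, fell (-0.65 ± 0.10), as did Trp53bp1, which steers breaks to end joining (-0.44 ± 0.05), and the end joining kinase Prkdc (-0.47 ± 0.10). The nuclease Ercc5, which RPA positions in nucleotide excision repair, rose to 9.87, 10.03 and 9.61 against 9.06, 8.99 and 8.97 (0.83 ± 0.10).

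Cell cycle genes differed by phase. The G1 and S phase list held 22 genes, among them cyclins, their kinases, E2F factors and the pocket protein Rb1. Of these 13 were higher and 2 lower, a median of 0.24, and without array 3 the counts were 12 and 4. Cyclin E1, Ccne1, which drives entry into S phase, read 11.45, 11.59 and 11.46 log2 units against 10.17, 10.26 and 10.22 (1.28 ± 0.05, limma adjusted p = 1.5e-06). It was also higher than under HSF1 shRNA (direct difference 0.91, limma adjusted p = 3.5e-05). The D cyclins Ccnd1 (0.84 ± 0.09) and Ccnd2 (0.75 ± 0.11) rose in all arrays, and Ccnd2 was highest in array 3 at 12.11 against 11.71 and 11.60. Among the E2F factors that rose were E2f1 (0.73 ± 0.17) and E2f3 (0.32 ± 0.06). Tfdp2, an E2F partner, and the pocket protein Rbl2 fell (-0.56 ± 0.06 and -0.54 ± 0.07). The pocket protein Rb1, whose values are given above, was among the genes that rose.

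The tested inhibitors of cyclin-dependent kinases went the other way. Of 6 tested, 5 were lower and 0 higher, at a median of -0.44, and 3 were lower without control array 3. Cdkn1b, which encodes p27, read 11.36, 11.43 and 11.19 log2 units against 11.97, 11.93 and 11.94 (-0.62 ± 0.07). Cdkn1c, which encodes p57, fell by 0.57 (log2 difference -0.57 ± 0.06), and the INK4a and ARF locus Cdkn2a by 0.31 (log2 difference -0.31 ± 0.07). Cdkn1a was not analysed here, because no row carried it as its only symbol. The counts of this list therefore do not cover it, and its direction is not given. All 3 named inhibitors were lower in every array than in any control array.

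Mitotic genes that were called were more often lower than higher. Of 24 mitotic kinases, cyclins and ubiquitin ligase genes 5 were lower (20.8%) and 2 higher (8.33%), at a median of -0.05. Among all genes 14.7% were lower and 15.4% higher, so this list lay near that background. Cdk1, Plk1 and Aurkb were not called (-0.12 ± 0.06, -0.05 ± 0.06 and 0.02 ± 0.05). Bub1b, of the spindle checkpoint, fell to 10.95, 10.99 and 10.95 log2 units against 11.32, 11.30 and 11.21 (-0.31 ± 0.05). Kinetochore genes were lower in 10 of 26 and higher in 1, led by Cenpm (-0.60 ± 0.06). Mitotic kinesins and spindle genes were lower in 8 of 21 and higher in 2. The kinesin Kif18a, which damps chromosome movement, read 8.68, 8.71 and 8.94 against 9.54, 9.69 and 9.62 (-0.84 ± 0.10). Condensin and cohesin genes were lower in 11 of 20 and higher in 0, at a median of -0.20, and 7 were lower without control array 2, control array 3 or RPA1 array 1. The cohesin subunit Stag2 fell most there and was weakest in array 3, at 10.04, 9.83 and 10.57 against 10.81, 10.74 and 10.84 (-0.65 ± 0.15).

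Replication-dependent histone genes, which supply S phase chromatin, were mostly lower. Of 17 tested, 12 were lower and 1 higher, at a median of -0.59, and the counts were the same without array 3. The linker histone gene H1f1 read 11.26, 11.07 and 11.19 log2 units against 12.51, 12.47 and 12.41 (-1.29 ± 0.07, limma adjusted p = 4.7e-06). H1f5 fell by 1.10 (log2 difference -1.10 ± 0.10) and H2ac4 by 1.02 (log2 difference -1.02 ± 0.14). The groups did not overlap for any of these 3. The exception was H2bc4, which rose to 10.75, 11.10 and 10.48 against 8.81, 9.09 and 9.06 (1.79 ± 0.14). Histone genes were also lower under HSF1 shRNA against control, in 8 of the 17, with 1 higher, at a median of -0.305. Against HSF1 shRNA directly 9 of the 17 were lower and 1 higher. Histone genes are near-identical copies, and signal shared between their probe sets was not tested. The strips of list members show the histone, G1 and p53 groups side by side.

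**Figure D3:**
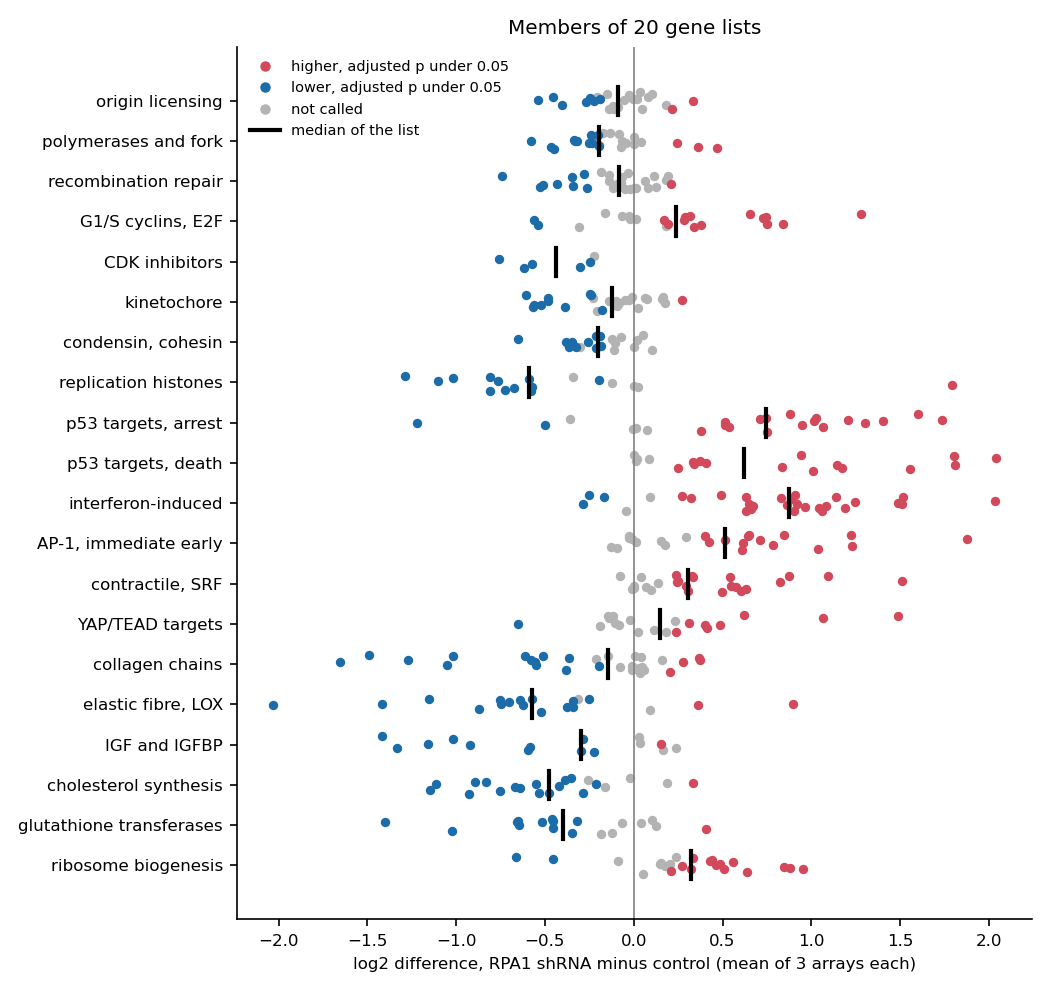
Log2 difference between RPA1 shRNA and control (horizontal axis) for every tested member of 20 gene lists, 1 point per gene, with called genes coloured by direction, uncalled genes grey and a bar at the list median. The p53, interferon and AP-1 lists lie mostly above 0, and the histone, cholesterol, elastic fibre and glutathione transferase lists mostly below.

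Targets of p53, the transcription factor activated by DNA damage, rose together. Of 23 targets that act in arrest and feedback, 17 were higher and 2 lower, at a median of 0.75, and 17 and 3 without array 3. Mdm2, the ubiquitin ligase that restrains p53, read 12.45, 12.49 and 12.09 log2 units against 10.69, 10.59 and 10.56 (1.73 ± 0.10, limma adjusted p = 4.7e-06). Under HSF1 shRNA Mdm2 read 11.07, 11.03 and 11.09, and the direct difference between the knockdowns was 1.28 (limma adjusted p = 7.7e-05). Trp53inp1, a stress protein that promotes p53 phosphorylation, had a wide spread, at 11.77, 11.88 and 10.39 against 9.83, 9.75 and 9.66 (1.60 ± 0.32). Further genes that rose were the RNA-binding Zmat3 (1.07 ± 0.14), the arrest gene Rprm (1.03 ± 0.13), the phosphatase Ppm1d (0.75 ± 0.10) and Mdm4 (0.51 ± 0.09).

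The targets that act in cell death were higher in 14 of 18 and lower in 0, at a median of 0.62, with the same counts without array 3. Perp, a membrane protein of p53-dependent death, read 10.03, 10.28 and 10.29 log2 units against 8.26, 8.46 and 8.48 (1.80 ± 0.10). Steap3, a metalloreductase, read 10.62, 10.84 and 10.07 against 8.78, 8.84 and 8.49 (1.81 ± 0.17). Dcxr, a dicarbonyl and xylulose reductase, read 10.79, 11.06 and 10.46 against 9.21, 9.24 and 9.19 (1.56 ± 0.12) and 9.29, 9.24 and 9.21 under HSF1 shRNA. All 3 genes stood above every control and HSF1 array. Direct comparison with HSF1 shRNA called 15 of the 23 arrest genes higher and 1 lower, and 11 of the 18 death genes higher and 0 lower. HSF1 shRNA against control called 5 higher and 2 lower of the 23, and 5 higher and 0 lower of the 18.

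Not every p53 target moved with the rest. Bbc3, which encodes the death activator PUMA, read 7.58, 7.70 and 7.51 log2 units against 7.60, 7.60 and 7.60 (-0.00 ± 0.06). Gadd45a was not called (-0.36 ± 0.13), nor was Sfn (0.08 ± 0.07). Sesn1, a stress-induced regulator of growth signalling, fell in all arrays, to 10.27, 10.50 and 10.08 against 11.57, 11.54 and 11.40 (-1.22 ± 0.11), and Ddb2 fell (-0.50 ± 0.12) but lost its call without control array 3 (limma adjusted p = 0.054). Within the BCL2 family 4 of 16 genes were higher and 2 lower, with 5 lower without array 3. Bid (0.72 ± 0.07) and Pmaip1, which encodes NOXA (0.34 ± 0.06), rose, and the death activator Bmf fell to 8.79, 8.90 and 8.83 against 9.97, 10.18 and 9.88 (-1.17 ± 0.07).

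Interferon-induced genes encode antiviral effectors and carry in their promoters the interferon-stimulated response element, which the STAT and IRF factors bind. The promoters of 5 members are shown because their list held the motif more often than promoters at large. Each line gives the 250 bases before the start of the gene from RefSeq on GRCm38.p6, 5′ to 3′ on the strand of the gene, with the motif GAAANNGAAA, read on either strand, in capitals.
Trim30a, chr7:104465194-104465443, minus strand: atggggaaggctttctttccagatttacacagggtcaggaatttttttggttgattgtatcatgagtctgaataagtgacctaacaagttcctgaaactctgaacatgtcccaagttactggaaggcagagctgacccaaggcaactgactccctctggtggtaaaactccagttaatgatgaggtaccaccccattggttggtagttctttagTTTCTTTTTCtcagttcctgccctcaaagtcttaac
Rsad2, chr12:26456453-26456702, minus strand: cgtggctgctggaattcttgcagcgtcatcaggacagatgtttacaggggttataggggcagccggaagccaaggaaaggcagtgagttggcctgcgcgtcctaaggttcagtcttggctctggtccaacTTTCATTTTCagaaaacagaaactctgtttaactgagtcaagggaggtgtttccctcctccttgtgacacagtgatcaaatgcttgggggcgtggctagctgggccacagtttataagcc
Ifit3, chr19:34583279-34583528, plus strand: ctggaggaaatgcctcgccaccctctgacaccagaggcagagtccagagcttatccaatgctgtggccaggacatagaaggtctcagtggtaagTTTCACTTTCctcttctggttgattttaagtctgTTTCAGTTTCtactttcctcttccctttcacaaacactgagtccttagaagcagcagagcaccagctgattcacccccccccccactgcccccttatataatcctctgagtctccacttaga
Ifit1, chr19:34640639-34640888, plus strand: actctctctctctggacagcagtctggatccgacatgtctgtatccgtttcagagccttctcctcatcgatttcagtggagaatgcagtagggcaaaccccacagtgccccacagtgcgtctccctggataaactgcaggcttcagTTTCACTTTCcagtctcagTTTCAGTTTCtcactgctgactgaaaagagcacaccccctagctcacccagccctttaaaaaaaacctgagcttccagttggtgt
Ifitm2, chr7:140955962-140956211, minus strand: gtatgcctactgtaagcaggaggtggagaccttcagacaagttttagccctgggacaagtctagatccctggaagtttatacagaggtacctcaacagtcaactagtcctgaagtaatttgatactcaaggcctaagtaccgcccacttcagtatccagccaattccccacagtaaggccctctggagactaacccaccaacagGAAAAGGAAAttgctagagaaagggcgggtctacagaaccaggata
The first 4 genes rose and Ifitm2 fell (-0.17 ± 0.05), the latter losing its call without control array 3 (limma adjusted p = 0.065). It began 36 bases before the start in Trim30a, 120 in Rsad2, 156 and 122 in Ifit3, 104 and 85 in Ifit1 and 46 in Ifitm2. In the whole list 8 of the 21 genes with a promoter sequence held it (38.1%), against 457 of all 15614 promoters (2.93%). Among all genes with a promoter it stood in 3.32% of the higher, 2.08% of the lower and 3.01% of the uncalled genes, and in 27 of the 520 promoters of genes higher at least 1.5-fold (5.19%). A match describes letters in this window and is neither a binding site nor a cause.

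Of 30 interferon effectors, 25 were higher and 3 lower under RPA1 shRNA, at a median of 0.87, and 24 and 3 without array 3. Trim30a, a TRIM protein of innate immunity, read 10.95, 10.58 and 9.92 log2 units against 8.25, 8.39 and 8.71 (2.03 ± 0.22, limma adjusted p = 0.00014). Rsad2, the antiviral enzyme viperin, read 11.52, 11.05 and 11.71 against 9.74, 9.89 and 10.19 (1.49 ± 0.16). Ifit1, which binds foreign RNA ends, read 11.73, 11.22 and 11.48 against 10.15, 10.47 and 10.57 (1.08 ± 0.13). No RPA1 array overlapped the controls for these 3, although the controls themselves ran from 8.25 to 8.71 for Trim30a.

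Usp18, which removes ISG15 from proteins and damps interferon signalling, rose as well (1.51 ± 0.17). The related Ifit3 rose (1.14 ± 0.21) while Ifit2 fell, at 9.37, 9.25 and 9.44 log2 units against 9.56, 9.70 and 9.67 (-0.29 ± 0.06). HSF1 shRNA against the same controls called 26 of the 30 higher and 0 lower, and Rsad2 read 11.37, 11.44 and 11.46 there. Direct comparison of the knockdowns called 4 of 30 higher under RPA1 shRNA and 3 lower, against 9.71% and 14.7% of all genes. Ifit2 was among the lower (direct difference -0.65, limma adjusted p = 0.00021). Most interferon genes were therefore not told apart between the knockdowns, which does not show that they were equal.

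Genes upstream of that response moved in both directions. Of 20 nucleic acid sensors and adaptors 11 were higher and 1 lower. HSF1 shRNA against control called 9 of the 20 higher and 0 lower, and directly 2 were higher under RPA1 shRNA and 3 lower. Aim2, a sensor of cytosolic DNA, read 7.30, 7.69 and 6.81 log2 units against 6.21, 6.04 and 6.30 (1.08 ± 0.18), and its direct difference from HSF1 shRNA was 0.83 (limma adjusted p = 0.0083). Tlr2, a receptor of bacterial lipopeptides, fell (-0.38 ± 0.06). Both chains of the type I interferon receptor fell: Ifnar2 to 11.43, 11.35 and 11.55 against 12.17, 12.12 and 12.23 (-0.73 ± 0.06), and Ifnar1 by 0.36 (log2 difference -0.36 ± 0.05). Stat3 fell (-0.39 ± 0.05) and Irf7, the factor that amplifies interferon production, rose (1.05 ± 0.14). Over the receptor, STAT and IRF list 4 of 19 were higher and 6 lower, with 3 lower without control array 1 or control array 2.

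Interferon-inducible GTPases were higher in 5 of 7 and lower in 0, among them Gbp7 (1.03 ± 0.14) and Irgm1 (0.76 ± 0.07). The MHC class I list gave 10 higher and 1 lower of 16. That count moved with single arrays, to 5 without control array 1 or RPA1 array 2, 6 without control array 2 and 4 without RPA1 array 1. Tap1, the peptide transporter, read 10.45, 10.51 and 9.89 log2 units against 9.33, 9.30 and 9.45 (0.92 ± 0.15). Among immune surface genes Cd274, which encodes PD-L1, rose (1.11 ± 0.08) and the inhibitory ligand Cd200 fell (-1.06 ± 0.14).

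Chemokines rose more often than they fell, with 14 of 24 higher and 3 lower, and 13 and 4 without array 3. HSF1 shRNA against control also called 14 of the 24 higher and 1 lower, at a median of 0.419 against 0.275 under RPA1 shRNA. Compared directly, 2 chemokines were higher under RPA1 shRNA and 7 lower. Ccl17, a ligand of CCR4, read 10.49, 10.36 and 10.23 log2 units against 8.87, 8.93 and 8.77 (1.503 ± 0.07, limma adjusted p = 2.7e-06), and 10.40, 10.26 and 10.33 under HSF1 shRNA. Cxcl10 and Cxcl11, ligands of CXCR3, rose by 1.12 ± 0.14 and 1.12 ± 0.12. Cxcl12, the CXCR4 ligand made by stromal cells, fell in all arrays, to 10.60, 10.65 and 11.05 against 12.35, 12.20 and 12.14 (-1.47 ± 0.12). Its direct difference from HSF1 shRNA was -0.41 (limma adjusted p = 0.034). Cytokines of fibroblasts were higher in 11 of 27 and lower in 7. Il6 spread widely, at 8.16, 7.58 and 9.21 against 6.32, 6.69 and 6.86 (1.69 ± 0.33), with array 3 highest. Il1rn, the interleukin 1 receptor antagonist, fell to 8.54, 8.45 and 9.20 against 10.81, 10.96 and 10.87 (-2.15 ± 0.16). Of 19 NF-kB subunit and inhibitor genes 7 were higher and 4 lower, with Rela at 0.52 ± 0.06 and Nfkbib at 0.58 ± 0.06.

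Immediate early transcription factors, the first genes that serum and stress switch on, rose in 14 of 23 and fell in 0, at a median of 0.52, and 15 rose and 1 fell without array 3. Fosl1, which encodes the AP-1 subunit FRA1, read 11.48, 11.46 and 11.58 log2 units against 9.61, 9.63 and 9.67 (1.87 ± 0.06, limma adjusted p = 3.8e-07). Atf3, a stress factor of the same family, read 11.11, 11.16 and 11.24 against 9.85, 9.94 and 10.03 (1.23 ± 0.07). The small MAF genes Maff (1.22 ± 0.06) and Mafk (1.04 ± 0.06) rose too. In these 4 genes array 3 was as high as the other 2 or higher. Jun (0.52 ± 0.05) and Fos (0.64 ± 0.07) rose, Egr1 was not called (0.17 ± 0.11), and direct comparison with HSF1 shRNA called 14 of the 23 higher and 1 lower. HSF1 shRNA against control called 9 of the 23 higher and 1 lower, at a median of 0.165.

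ERK feedback genes were higher in 11 of 18 and lower in 2, at a median of 0.37. Dusp1, a phosphatase of MAP kinases, read 11.40, 11.56 and 11.97 log2 units against 10.53, 10.49 and 10.35 (1.18 ± 0.13), with array 3 again highest. Spry1, an inhibitor of receptor signalling, fell (-0.67 ± 0.13). Of 20 YAP and TEAD genes 8 were higher and 1 lower. Ankrd1, a nuclear and sarcomeric ankyrin repeat protein and a standard YAP target, read 12.02, 11.94 and 11.95 against 10.48, 10.47 and 10.49 (1.49 ± 0.05, limma adjusted p = 4.3e-07). Ccn2 rose by 1.06 ± 0.11 and Ccn1 by 0.62 ± 0.08, both secreted matricellular proteins. Yap1 itself was not called (-0.08 ± 0.08) and its paralog Wwtr1, which encodes TAZ, fell (-0.65 ± 0.12). The TEAD motif GGAATG, on either strand of the 250 bases before the start, stood in 10 of 15 promoters of this list (66.7%) and in 11.3% of all promoters.

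Contractile and SRF target genes of smooth muscle type were higher in 17 of 25 and lower in 0, at a median of 0.30, and 17 and 1 without array 3. Tagln, the actin-binding protein transgelin, read 11.80, 11.91 and 11.16 log2 units against 10.14, 10.10 and 10.11 (1.51 ± 0.16). Actg2, an actin of smooth muscle, rose by 1.09 ± 0.14, and Acta2, the actin of myofibroblasts, read 13.81, 13.91 and 13.03 against 12.72, 12.69 and 12.70 (0.88 ± 0.19). Array 3 was lowest in all 3 genes yet above the controls. Under HSF1 shRNA Tagln read 10.07, 9.92 and 9.81 and Acta2 12.52, 12.35 and 12.49. The direct differences were 1.69 for Tagln (limma adjusted p = 0.00021) and 1.13 for Acta2 (limma adjusted p = 0.0025). That comparison called 15 of the 25 higher and 0 lower.

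Of the extracellular matrix genes, a main secretory product of fibroblasts, more were called lower than higher. Of 29 collagen chains 13 were lower and 4 higher. Col6a2 and Col6a1, of the beaded filament collagen, read 10.15, 9.88 and 10.42 log2 units against 11.85, 11.82 and 11.74 (-1.66 ± 0.11) and 10.31, 10.09 and 10.77 against 11.87, 11.87 and 11.90 (-1.49 ± 0.14). Col1a2 of fibrillar collagen fell by 1.05 (log2 difference -1.05 ± 0.12). In the elastic fibre and lysyl oxidase list 15 of 19 were lower and 2 higher, at a median of -0.57, with the same counts without array 3. Lox, the enzyme that crosslinks collagen and elastin, read 10.83, 10.56 and 11.88 against 13.15, 13.12 and 13.10 (-2.03 ± 0.27). Mfap4, a microfibril protein, read 8.20, 8.30 and 8.42 against 9.70, 9.77 and 9.70 (-1.42 ± 0.07, limma adjusted p = 2.7e-06). The paralog Loxl4 went up (0.90 ± 0.05), and the elastin gene Eln was not called (0.09 ± 0.08).

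Small leucine-rich proteoglycans were lower in 6 of 16 and higher in 0, among them Ogn (-1.76 ± 0.16) and Dcn, which encodes decorin (-0.79 ± 0.15). Matricellular and adhesive glycoproteins were lower in 12 of 26 and higher in 5, with Tgfbi, a TGF-beta induced matrix protein, at 8.51, 8.74 and 9.32 log2 units against 9.87, 10.15 and 10.02 (-1.16 ± 0.18). Matrix metalloproteinases and inhibitors gave 7 lower and 4 higher of 25, integrins 7 lower and 6 higher of 19, and cadherins and junction genes 7 lower and 3 higher of 23. The collagen receptor subunits Itga1 (-1.30 ± 0.18) and Itga11 (-0.81 ± 0.13) fell, and the laminin receptor subunit Itga6 rose to 12.33, 12.12 and 11.57 against 10.88, 11.08 and 10.87 (1.06 ± 0.16). Cdh11, the cadherin of mesenchymal cells, fell (-0.88 ± 0.05).

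Markers of the labelled cell type were also mostly lower. Some of them are counted in other lists too, among them Col1a2, Dcn, Pdgfra and Pdgfrb, so these counts are not independent of those lists. Of 12 fibroblast markers 8 were lower and 0 higher, at a median of -0.57. Vim, the mesenchymal intermediate filament, read 14.11, 14.08 and 14.16 log2 units against 14.01, 14.02 and 14.01 and was not called (0.10 ± 0.04), nor was the surface marker Thy1 (0.10 ± 0.06). Pdgfra and Pdgfrb, receptors of platelet-derived growth factor, fell. Pdgfra read 8.72, 8.72 and 8.73 against 10.49, 10.45 and 10.34 (-1.70 ± 0.07, limma adjusted p = 1.5e-06). Pdgfrb read 10.98, 10.80 and 11.15 against 12.028, 12.068 and 12.003 (-1.06 ± 0.08). In bulk RNA fewer cells of a type and less RNA per cell cannot be told apart, here and in the lists above.

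Markers of other cell types mostly did not pass. The macrophage and blood list gave 2 higher of 7. Cd68, the lysosomal glycoprotein, read 10.40, 10.61 and 9.84 log2 units against 8.41, 8.20 and 8.08 (2.06 ± 0.17), and Csf1r rose (0.35 ± 0.07). The defining markers Adgre1 (0.09 ± 0.08), Ptprc (0.12 ± 0.06) and Itgam (0.12 ± 0.08) were not called. Of 8 epithelial markers 1 was higher, Krt14 (0.61 ± 0.07), and Epcam (-0.10 ± 0.07) and Cdh1 (-0.04 ± 0.05) were not called. Of 6 adipocyte markers 0 were called. Skeletal muscle markers were higher in 3 of 7, among them Des (0.63 ± 0.09), while the lineage factors Myod1 (-0.03 ± 0.06) and Myog (0.02 ± 0.07) were not called. Neural markers were higher in 3 of 7 and lower in 1, and Nes, the intermediate filament nestin, read 11.74, 11.78 and 11.98 against 10.943, 11.128 and 10.996 (0.81 ± 0.08). The part of other cell types in these results was not tested.

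Insulin-like growth factor genes were mostly lower, and other growth factor genes moved in both directions. Of 15 insulin-like growth factor genes 10 were lower and 1 higher, at a median of -0.30. Igf2 read 11.08, 11.22 and 11.07 log2 units against 12.67, 12.51 and 12.46 (-1.42 ± 0.09, limma adjusted p = 8.5e-06). The ligand Igf1 (-0.92 ± 0.22), the receptor Igf1r (-0.29 ± 0.06) and the binding proteins Igfbp2 (-1.33 ± 0.18), Igfbp3 (-1.02 ± 0.07) and Igfbp4 (-1.16 ± 0.08) fell. Among PDGF, EGF and FGF genes 7 of 23 were lower and 6 higher, with 3 higher without control array 1 or control array 3. Fgfr2 fell (-0.89 ± 0.06), while Hbegf, an EGF receptor ligand, rose and was highest in array 3 at 11.39 against 10.60 and 10.49 (0.91 ± 0.19).

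In the TGF-beta and BMP list 6 of 24 were lower and 3 higher. The BMP targets Id3 and Id1 fell, Id3 to 10.55, 10.31 and 10.49 log2 units against 11.67, 11.70 and 11.68 (-1.23 ± 0.07) and Id1 by 0.92 (log2 difference -0.92 ± 0.12). The BMP antagonist Grem1 rose to 8.996, 8.997 and 9.024 against 8.05, 7.97 and 8.08 (0.97 ± 0.05). Wnt pathway genes were lower in 14 of 29 and higher in 6. The receptor Fzd4 read 8.37, 8.44 and 8.22 against 10.06, 10.19 and 10.12 (-1.78 ± 0.08, limma adjusted p = 1.7e-06), and the secreted antagonists Sfrp1 (-1.12 ± 0.09) and Sfrp2 (-1.27 ± 0.14) fell. Semaphorins, plexins and neuropilins, guidance cues and their receptors, were lower in 11 of 28 and higher in 6. Sema3a read 8.36, 8.45 and 9.10 against 10.25, 10.25 and 10.19 (-1.60 ± 0.16), and Sema6a rose (0.92 ± 0.13).

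**Figure D4:**
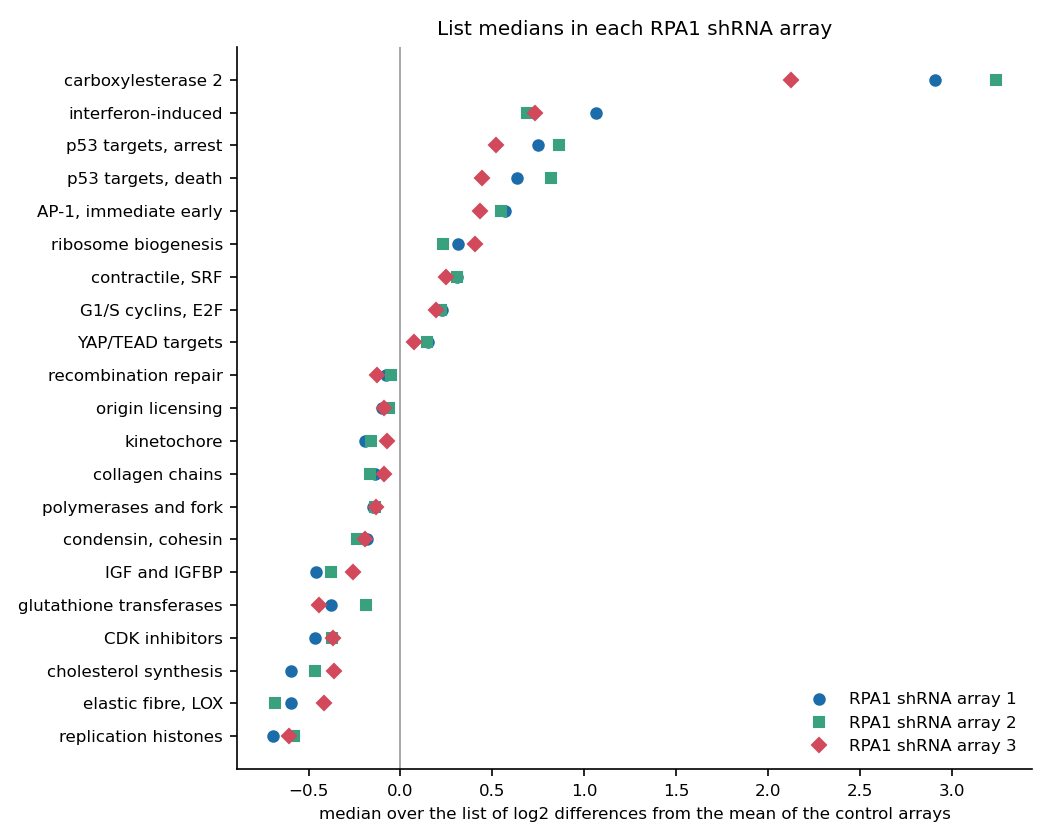
Median log2 difference from the control mean for 21 gene lists in each of the 3 RPA1 shRNA arrays, 1 marker per array. Array 3 lies nearest to 0 for the carboxylesterase 2, p53, cholesterol and elastic fibre lists, and farthest from 0 for ribosome biogenesis and glutathione transferases.

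Lipid synthesis genes were lower as a group. Cholesterol synthesis is driven by the transcription factor SREBP2, which its escort SCAP carries from the endoplasmic reticulum and INSIG proteins hold back. Of 21 genes of synthesis and uptake 16 were lower and 1 higher, at a median of -0.48, and 17 and 2 without array 3. Cyp51, which demethylates lanosterol, read 9.61, 9.58 and 10.21 log2 units against 10.99, 10.94 and 10.92 (-1.15 ± 0.14, limma adjusted p = 0.00031). Hmgcs1, at the entry of the pathway, read 9.78, 9.90 and 10.17 against 10.84, 10.89 and 10.80 (-0.89 ± 0.09). Insig1 spread most, at 10.12, 10.35 and 11.32 against 11.70, 11.75 and 11.67 (-1.11 ± 0.24). In all 3 genes array 3 lay nearest to the controls.

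Srebf2, which encodes SREBP2, fell to 11.53, 11.59 and 11.69 log2 units against 12.30, 12.29 and 12.23 (-0.67 ± 0.06). Scap was the gene that rose (0.34 ± 0.07). Fatty acid synthesis and desaturation genes were lower in 10 of 14 and higher in 2, at a median of -0.45, with the same counts without array 3. The elongase Elovl6 (-0.86 ± 0.16) and the desaturases Scd2 (-0.80 ± 0.11), Scd1 (-0.59 ± 0.08) and Fads1 (-0.69 ± 0.06) fell. Fasn, the fatty acid synthase, went the other way, at 12.37, 12.50 and 12.25 against 12.13, 12.16 and 12.07 (0.25 ± 0.07). The Fasn call was lost without control array 1, control array 3 or RPA1 array 2 (limma adjusted p = 0.050, 0.069 and 0.055).

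The knockdowns differed in these genes. HSF1 shRNA against control called 6 of the 21 cholesterol genes higher and 0 lower, at a median of 0.21, and 3 of the 14 fatty acid genes higher and 0 lower. Compared directly, 19 of the 21 cholesterol genes were lower under RPA1 shRNA than under HSF1 shRNA and 1 was higher, at a median of -0.74. For fatty acid genes the direct counts were 11 lower and 0 higher of 14. Hmgcs1 read 11.11, 11.01 and 11.05 log2 units under HSF1 shRNA, a direct difference of -1.11 (limma adjusted p = 8.5e-05). Sqle, which makes squalene epoxide, read 10.23, 10.27 and 10.84 under RPA1 shRNA, 11.61, 11.61 and 11.63 under HSF1 shRNA and 11.21, 11.37 and 11.26 in the controls (direct difference -1.17, limma adjusted p = 0.00051). The plot of lipid genes under both shRNAs shows this separation. The CCAAT box stood in 15 of 17 cholesterol gene promoters (88.2%) and in 35.5% of all promoters, and also in 16 of 18 promoters of the ER chaperone list (88.9%), of whose 21 genes 12 were higher and 4 lower. The SREBP motif TCACNCCAC, searched on both strands, stood in 1 of the 17 cholesterol gene promoters (5.88%) and in 0.993% of all promoters.

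**Figure D5:**
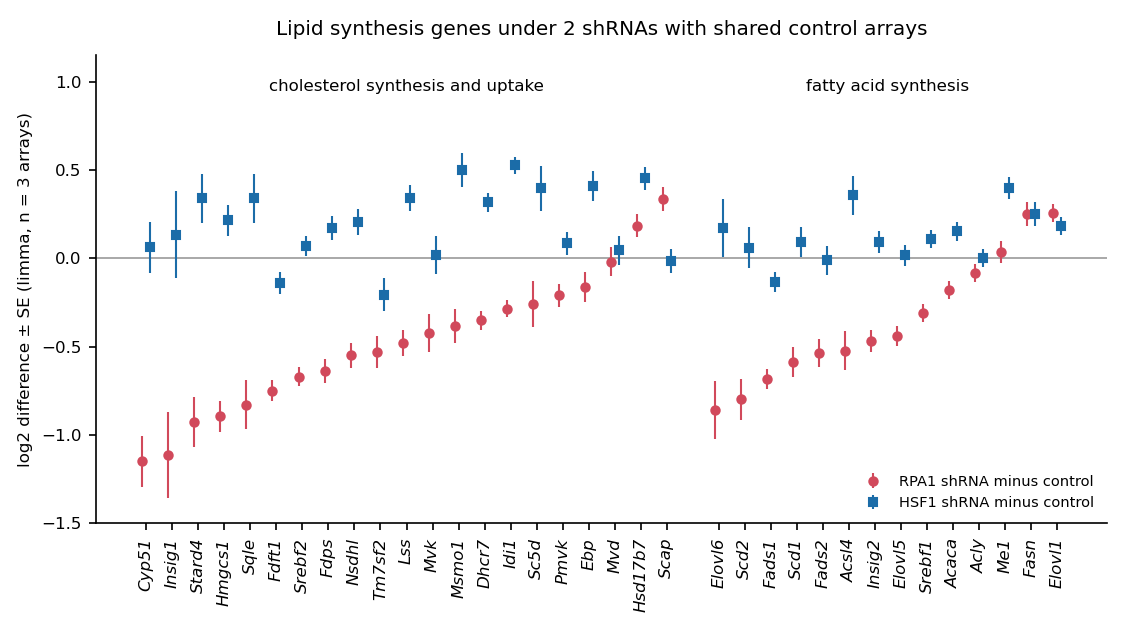
Log2 difference from control ± SE (n = 3 arrays per group) for the cholesterol and fatty acid genes, with RPA1 shRNA and HSF1 shRNA in different colours. Most RPA1 points lie below 0 and below the HSF1 points of the same gene, and Scap and Fasn are exceptions.

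Enzymes of detoxification moved in opposite directions by family. Carboxylesterase 2 genes, which hydrolyse esters and drugs, were higher in 4 of 5 and lower in 0, at a median of 2.76, and the direct comparison with HSF1 shRNA gave the same counts. Ces2b, the least changed of the 4, read 7.30, 7.46 and 6.65 log2 units against 6.13, 5.94 and 6.05 (1.10 ± 0.17), and 6.18, 6.18 and 6.16 under HSF1 shRNA. Ces2a of the same family was not called (-0.07 ± 0.09). The sequences of the family are alike, and shared probe signal was not tested. Of 11 other carboxylesterases 1 was higher. Glutathione S-transferases were lower in 11 of 18 and higher in 1, at a median of -0.40. Mgst1, a membrane-bound form, read 8.28, 8.54 and 8.53 against 9.70, 9.91 and 9.94 (-1.40 ± 0.11), and Gstm1 fell by 1.02 (log2 difference -1.02 ± 0.09). Direct comparison called 7 of the 18 lower than under HSF1 shRNA and 0 higher.

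NRF2 targets, another branch of the oxidative response, were higher in 9 of 19 and lower in 1. Hmox1, heme oxygenase, read 11.92, 12.15 and 11.42 log2 units against 10.79, 10.86 and 10.86 (1.00 ± 0.15), and Gclc, which limits glutathione synthesis, rose by 0.66 ± 0.08. Nqo1 was not called (-0.13 ± 0.09). Glycolysis genes were higher in 4 of 16 and lower in 3 under RPA1 shRNA, and higher in 10 and lower in 0 under HSF1 shRNA. Directly, 11 of 16 were lower under RPA1 than under HSF1 shRNA and 0 higher. Ldha read 13.45, 13.45 and 13.60 against 13.15, 13.23 and 13.15 (0.32 ± 0.06). Respiratory chain genes gave 2 higher and 3 lower of 26, with 6 lower without array 3.

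Genes of ribosome assembly rose while those of ribosomal proteins did not. Of 23 ribosome biogenesis and Myc genes 14 were higher and 2 lower, at a median of 0.32, and 13 and 2 without array 3. Rrp9, of the small subunit processome, read 10.47, 10.54 and 10.69 log2 units against 9.65, 9.66 and 9.53 (0.95 ± 0.07). Myc, which drives this programme, read 11.69, 11.64 and 11.90 against 10.82, 10.91 and 10.98 (0.84 ± 0.07, limma adjusted p = 3.6e-05), and Mycn fell (-0.66 ± 0.09). Myc was also above HSF1 shRNA (direct difference 0.50, limma adjusted p = 0.0013). Of 21 cytosolic ribosomal protein genes 0 were higher and 4 lower.

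Chaperone and proteasome genes that moved were mostly higher. Of 27 cytosolic heat shock protein genes 11 were higher and 1 lower, but 7 were higher without control array 1 and 5 without control array 3. Cryab, a small heat shock protein, read 12.59, 12.57 and 12.31 log2 units against 11.54, 11.71 and 11.57 (0.88 ± 0.08), and Hsph1, a nucleotide exchange factor for HSP70, rose (0.64 ± 0.10). Directly, 3 of the 27 were higher under RPA1 than under HSF1 shRNA and 4 lower. Proteasome subunits were higher in 12 of 31 and lower in 1. Endoplasmic reticulum chaperones were higher in 12 of 21 and lower in 4, with 7 higher without control array 1, and Dnajb11 rose by 0.56 ± 0.04. The unfolded protein response and ATF4 list went the other way, at 8 lower and 2 higher of 25. Its factor Xbp1 fell to 11.26, 11.26 and 11.47 against 11.86, 11.82 and 11.86 (-0.52 ± 0.06), and the ATF4 target Chac1 fell (-0.66 ± 0.09). HSF1 shRNA against control gave like counts: 11 ER chaperones higher and 1 lower, and 10 proteasome genes higher and 0 lower. In the ATF4 list it called 1 higher and 9 lower. Directly, 2 ER chaperones were higher and 8 lower under RPA1 than under HSF1 shRNA. The direct counts were 0 higher and 4 lower for the proteasome, and 6 higher and 4 lower for the ATF4 list.

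Lysosomal acidification and positional genes were called in both directions, against 15.4% of all genes higher and 14.7% lower. V-ATPase and lysosome genes were higher in 11 of 26 (42.3%) and lower in 3 (11.5%). Only 7 were higher without control array 2, control array 3, RPA1 array 1 or RPA1 array 2. The pump subunits Atp6v1c1 (0.80 ± 0.07) and Atp6v1h (0.77 ± 0.07) rose, and Tfeb, a regulator of lysosomal genes, fell (-0.61 ± 0.06). Hox genes, which keep positional identity in fibroblasts, were lower in 12 of 36 (33.3%) and higher in 6 (16.7%), at a median of -0.02. Hoxc8 read 9.79, 10.03 and 10.97 log2 units against 11.62, 11.63 and 11.49 (-1.32 ± 0.24), and Hoxc13 from the same cluster rose (0.74 ± 0.12). HSF1 shRNA called 2 of the 36 higher and 0 lower, and the direct comparison called 12 lower and 6 higher under RPA1 shRNA.

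Genes of the cornified envelope, products of differentiated keratinocytes, were higher in 8 of 30 and lower in 1. Lce1g read 7.46, 7.78 and 7.91 log2 units against 5.75, 5.73 and 5.69 (1.99 ± 0.11), and Sprr1a rose (1.29 ± 0.13) while Sprr2g fell (-1.05 ± 0.09). LCE genes are close copies, and shared signal was not tested. Keratinocyte markers were higher in 2 of 6, with Krt10 (0.19 ± 0.07) and Ivl (0.09 ± 0.10) not called.

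The machinery of delivery and silencing was measured as well. Of 6 adenovirus entry genes 4 were lower and 1 higher. Cxadr, the attachment receptor of the adenoviruses common as vectors, read 9.69, 9.76 and 10.49 log2 units against 11.14, 11.06 and 11.09 (-1.12 ± 0.17), and 11.03, 10.96 and 10.96 under HSF1 shRNA (direct difference -1.001, limma adjusted p = 0.0029). Of 11 shRNA and microRNA genes 4 were higher and 3 lower, with Ago2, the slicing Argonaute, up (0.59 ± 0.10) and Drosha down (-0.34 ± 0.08). Whether they bear on the other values was not tested.

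Families defined by a shared symbol stem, 339 with at least 8 genes tested, were screened for those with at least 60% of members called one way, so the counts that follow describe a choice and are no test of it. Intraflagellar transport genes, which build the cilium, stood first: 12 of 14 Ift genes were lower (85.7%) and 0 higher, at a median of -0.40. Ift80 read 9.45, 9.51 and 9.63 log2 units against 10.34, 10.36 and 10.36 (-0.82 ± 0.06, limma adjusted p = 2.2e-05), and Ift172 read 8.88, 9.10 and 8.97 against 9.48, 9.52 and 9.48 (-0.51 ± 0.06). Both were close to control under HSF1 shRNA, with Ift80 at 10.43, 10.26 and 10.35. The direct comparison called 11 of 14 lower and 2 higher, and HSF1 shRNA called 1 higher and 1 lower. Without array 3 the counts were 12 lower and 1 higher. The other families past the mark were Cdkn (7 of 9 lower), Dennd (11 of 16 lower, and 9 without array 3), Oas (6 of 9 higher) and Utp (6 of 10 higher), the last including the small subunit processome gene Utp15 (0.82 ± 0.07). Dennd1a, Dennd1b, Dennd2a, Dennd4a and Dennd5b all lost their calls without control array 2, and likewise without RPA1 array 1. The Dennd share therefore depended on single arrays. Ift20, Cdkn2b and Oas1d lost their calls in the same fits.

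Receptors of odours and pheromones belong to sensory cells and stand here as genes with little expected transcript. Of 1194 such genes 27 were called (2.26%), 13 higher and 14 lower, against 30.1% of all genes.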

How the data were processed

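RNA of 9 samples, 3 per shRNA, was hybridised to 1 Affymetrix Mouse Gene 1.0 ST array each. The deposited values are log2 signals per probe set, made by the authors with RMA in Partek 6.5 per the submitters' processing notes. The log2 scale was inferred from the range of the values, and the values were used as deposited. RMA already equalizes the arrays, so a shift of all transcripts would not show.

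Gene names came from the platform annotation: 21789 of 35557 rows had 1 symbol, 1621 had several and 12147 were not listed. For the 999 genes with several rows the row with the highest mean over 9 arrays was used, and 1 gene had rows called in opposite directions. No filter on dim genes was used.

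R 4.3.3 and limma 3.58.1 fitted 1 mean per group to all 9 arrays (6 residual and 3.51 prior degrees of freedom), with Benjamini-Hochberg adjustment over 19938 genes and a two-sided threshold of 0.05. The procedure was tested on simulated data. The named genes are Rpa1, the 10 largest rises and falls without overlap, and of each list the 4 largest changes in its main direction and 1 in the other. Further members were named for their role, after their values were seen. The 72 gene lists and 8 marker lists are described by counts and medians, with 1435 of 1569 symbols tested. The members, lists and named genes were chosen with earlier results of these data known. Promoters came from RefSeq on GRCm38.p6 and were found for 15614 genes. The 11 motifs were searched in the 250 bases before the start. Alternatives were fewer arrays, a block, other scalings, a filter, a variance trend, array weights and the mean of a gene's rows.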

Additional observations from a re-analysis of the deposited data

Results flagged for a closer look

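Rows of the array that carried no single gene name were left out of the comparison and also changed under RPA1 shRNA. Of the rows not listed in the annotation 1345 were called (11.1%, 426 higher and 919 lower), and of the rows with several symbols 326 were called (20.1%, 195 higher and 131 lower), against 25.4% of the rows with 1 symbol. Among them, 6 probe sets stood out by the size of their log2 difference. Probe sets 10341084, 10358339 and 10608654 were lower, at -2.836, -2.588 and -2.162. Probe sets 10443463, 10375051 and 10349932 were higher, at 2.329, 2.306 and 2.186. They are given by probe set because no single gene was named for them.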

How the results depend on the processing

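The main counts were 3077 genes higher and 2921 lower. With array weights, which gave RPA1 arrays 1, 2 and 3 weights of 3.08, 0.576 and 0.213, the counts were 4555 and 4510. Leaving out each array in turn gave 2287 to 3691 genes higher and 2237 to 3554 lower. With only the 6 arrays compared, other scalings, a filter or a variance trend, the higher count ran from 2431 to 3321 and the lower from 2586 to 3108, cyclic loess being chosen after seeing the data. The log2 difference of Rpa1 stayed between -2.04 and -1.99 and the array 3 ratio between 0.666 and 0.714. A fit with the replicate block gave 2911 higher and 2781 lower. The numbers did not pair the samples: arrays of the same number correlated between -0.159 and 0.093 in their deviations from the group means. The block took the call from 7 named genes and lowered the MHC class I count from 10 to 5. More named genes lost their call in other fits. Leaving out control array 1, 2 or 3 took it from 30, 34 and 39 of them. Leaving out RPA1 array 1, 2 or 3 took it from 27, 32 and 5, and using only the 6 arrays compared from 29. No called named gene changed direction under any alternative. The number of arrays limits every call, since an exact test of 3 arrays against 3 cannot reach 0.05.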

Other observations

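Some genes with changes of at least 4-fold lay close together in the RefSeq gene order. Ces2e, Ces2f and Ces2g followed each other on chromosome 8 with 0 other tested genes between neighbours. Plxna4 and Podxl on chromosome 6 had 1 tested gene between them and both fell, and Lox and Sncaip on chromosome 18 had 2 between them and both fell. These pairs were picked after their values were seen.

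Among chromatin genes, Ubn1 and Dnmt3a read differently under the 2 shRNAs, although most genes of the chromatin lists were not called in the direct comparison. Ubn1, a subunit of the HIRA histone chaperone, read 10.36, 10.50 and 10.10 log2 units under RPA1 shRNA, 9.88, 9.90 and 9.87 in the controls and 8.65, 8.47 and 8.56 under HSF1 shRNA. It rose under RPA1 shRNA (0.43, limma adjusted p = 0.0057) and fell under HSF1 shRNA (-1.32, limma adjusted p = 6.8e-05), and the direct comparison was called (limma adjusted p = 2.9e-05). Dnmt3a, a de novo methyltransferase, fell to 9.20, 9.12 and 9.51 against 9.89, 10.02 and 9.95 (-0.68) and was not called under HSF1 shRNA (-0.08), with a direct difference of -0.59 (limma adjusted p = 0.0018).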
